A study of Mus musculus with 23 samples.

Results

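The nuclear genes for oxidative phosphorylation were followed in RNA from mouse spinal cord lesions. They were taken by symbol as every gene listed under a name that begins with Nduf, Uqcr, Cox4 to Cox8 or Atp5, or that is Sdha, Sdhb, Sdhc or Sdhd. This rule found 81 genes among the 9480 genes listed in the series. All 81 were listed in RNA bound to tagged ribosomes, against 48 in the flow-through RNA, and the 48 were listed in both. Over all genes, 9363 were listed in the RNA bound to tagged ribosomes, 4898 in the flow-through RNA and 4781 in both. Of the 81, 71 encode subunits of complexes I to V. The others are 5 complex I assembly factors (Ndufaf), 3 pseudogene symbols of the ATP synthase subunit g gene and 2 genes, Atp5s and Atp5sl, that carry an ATP synthase name but do not encode a subunit. Ndufa4 is counted with complex I here by its name, although its protein is assigned to complex IV.

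Oxidative phosphorylation takes place in the inner membrane of mitochondria. Complexes I and II pass electrons from NADH and succinate to ubiquinone, complex III passes them to cytochrome c and complex IV to oxygen, and complex V uses the resulting proton gradient to make ATP. The catalytic core of most complexes is surrounded by small accessory subunits, and nearly all of these are made from nuclear genes. The remaining core subunits of complexes I, III, IV and V are made inside the mitochondrion from its own genome, and those transcripts were not analysed here. Astrocytes carry out much glycolysis, but their mitochondria also respire and oxidise glutamate.

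The lesions came from young adult mice in which Cre under the mouse Gfap promoter places a hemagglutinin tag on ribosomes (mGFAP-Cre-RiboTag). The genotype label of all 23 samples reads wild type. The spinal cord of every mouse was crushed severely at thoracic level 10 (spinal cord injury, SCI), and tissue from the 3 mm at the lesion centre was collected at day 14. Precipitation through the tag gave the HA fraction, and the RNA left behind gave the flow-through (FT). The HA fraction held 3 libraries of hydrogel with growth factors, 3 of hydrogel CT and 4 of SCI only. The FT fraction held 5, 4 and 4 libraries of these groups in the same order. Hydrogel depots were injected at day 2. The growth factors are FGF and EGF in the series title but BDNF and NT3 in the deposited tables' column names, so they are left unnamed below. The meaning of CT is not given by the labels, and the column names use EmGel for that group. Title numbers run between 1645 and 1762 in the hydrogel libraries and between 9596 and 9935 in those of SCI only. Wherever SCI only is the other group, the effect of a depot and that of the series of title numbers cannot be told apart.

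Sequencing depth differed widely between the fractions. HA libraries held between 7940025 and 24337017 counts. FT libraries held between 19607 and 145365 counts in the hydrogel groups and between 2241603 and 5432938 with SCI only. Loci that collect reads of ribosomal RNA took 79.9% to 91.9% of HA counts with growth factors, 48.2% to 68.5% with hydrogel CT and 93.5% to 96.7% with SCI only. The members received 2323 to 98945 counts per HA library. In FT they received 10 to 1873 counts per library with growth factors, 40 to 227 with hydrogel CT and 169 to 1706 with SCI only. The FT library 1732 with growth factors stood apart. It held the 1873 member counts and had 17.3% of its counts on ribosomal loci, the lowest share of the 13 FT libraries. Of the 48 members in FT, 3 had a read in every library with growth factors, 16 in every library with hydrogel CT and 30 in every library with SCI only.

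The precipitate was checked with cell type markers. Of 13 astrocyte markers tested between fractions, 11 were higher in HA than in FT and none was lower, with Gfap at a log2 difference of 3.47. Neuronal markers were lower for 7 of 9 genes tested and microglia and macrophage markers for 7 of 8. Oligodendrocyte progenitor markers were higher in HA for 5 of 6 genes tested, with Olig1 at 3.17, so the precipitate also carried transcripts of that lineage. The astrocyte markers listed in both fractions summed to 9440 to 24100 CPM (counts relative to library size, scaled over both fractions) in HA, against 301 to 2770 CPM in FT. The neuronal markers summed to 50.9 to 571 CPM in HA, against 462 to 1680 CPM in FT, and the microglia and macrophage markers to 17 to 851 CPM in HA, against 76 to 7890 CPM in FT. Oligodendrocyte progenitor markers summed to 264 to 851 CPM in HA, against 23.1 to 160 CPM in FT. None of the 7 endothelial and none of the 5 erythroid markers was listed in both fractions. Their part in the results below was not tested. In these bulk samples, fewer cells of a type and less RNA per cell cannot be told apart.

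Within the HA fraction, levels were compared between members per transcript length, as CPM scaled within HA per kilobase of transcript, averaged over the 3 treatment groups. Complex IV subunits were the most abundant and complex V and complex I core subunits among the least. The median level per length was 32.4 over the 11 complex IV subunits, 13.7 over the 4 of complex II, 7.67 over the 8 of complex III, 6.57 over the 29 accessory subunits of complex I, 2.36 over the 13 of complex V, 1.87 over the 5 assembly factors and 1.40 over the 6 core subunits of complex I. These medians describe the listed transcripts only. Protein-coding transcripts took 97.8% of member counts in HA, but 6 members were listed only through non-coding transcripts, Atp5g3 among them, and their levels are not those of the coding RNA.

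**Figure D1:**
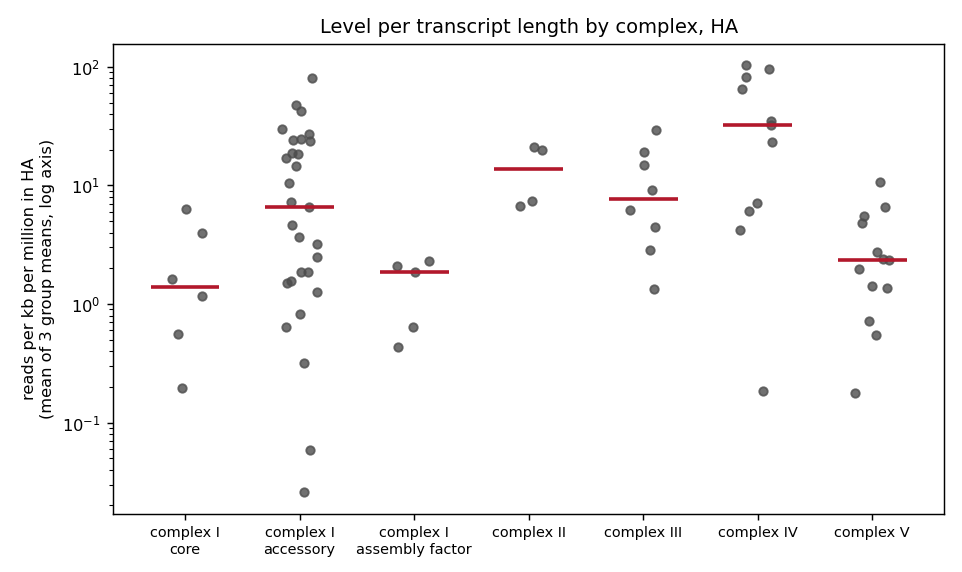
Level per transcript length of HA members by complex, in CPM per kilobase on a log axis. Each point is 1 gene as the mean of its 3 group means, and the red line is the median, which runs from 1.40 for the complex I core to 32.4 for complex IV.

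The member with the highest level per length was Cox6b1, which encodes a complex IV subunit at the face towards the intermembrane space. Its level per length averaged 129 ± 28.7 with growth factors (n = 3), 101 ± 39.0 in the hydrogel CT libraries (n = 3) and 78.2 ± 28.9 in the SCI only libraries (n = 4; all SD). Cox8a, another small complex IV subunit, followed at 71.5 ± 70.2, 124 ± 51.9 and 92.7 ± 34.3 in the same 3 groups. Next came Cox7c of complex IV at a mean of 82.1 over groups and Ndufa2, an accessory subunit in the peripheral arm of complex I, at 81.1. The SDs of these 4 genes overlap within groups, so their order is not resolved. The flavoprotein Sdha and the membrane anchor Sdhc of complex II stood at 19.9 and 21.2. Their SDs overlapped in both hydrogel groups but not with SCI only, where Sdha averaged 5.65 ± 1.69 and Sdhc 12.6 ± 3.05 (SD, n = 4). The alpha and beta subunits of ATP synthase, Atp5a1 and Atp5b, had levels per length of 2.77 and 5.55. The highest ATP synthase member was Atp5l, which encodes subunit g of the membrane part, at 10.6.

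For Cox6a and Cox7a, whose ubiquitous and muscle isoforms were both listed, the ubiquitous form had the higher level in HA. Cox6a1 had a level per length of 23.1, against 0.184 for Cox6a2, the heart and muscle form. Cox7a2 stood at 34.9, against 4.24 for the muscle form Cox7a1. The 3 genes Atp5g1, Atp5g2 and Atp5g3 encode the same mature c-ring subunit from different precursors, and they had 0.177, 2.41 and 0.715. The listed transcript was 4715 bases long for Atp5g1 and 441 for Atp5g2, on 133 and 204 HA counts. The gap between these 2 genes thus comes mostly from the lengths, and that of Atp5g3 is a non-coding transcript. Their order is therefore not a ranking of the isoforms. The isoforms of Cox4, the second isoforms of Cox6b and Cox8, Cox7a2l and Ndufa4l2 were not listed in either fraction and were not analysed.

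The first question was whether the tagged ribosomes carried these transcripts at other levels than the flow-through of the same lesions. Of the 38 members tested, 11 passed the test as higher in HA and 0 as lower, against 13.2% of all 3295 genes tested that were higher and 7.37% that were lower. The members called were thus 28.95% of those tested. The median log2 difference, HA over FT, was 0.98 over the members and 0.28 over all genes tested, and 36 of the 38 had a positive difference. The test was edgeR's quasi-likelihood test over the 10 title numbers present in both fractions, with treatment as a term and Benjamini-Hochberg adjustment over all genes tested, and a gene is said to be called where its adjusted p was under 0.05. Because a member can pass the filter on low counts through HA alone, the fit without a filter covers all 48 members. It called 16 higher and 0 lower, against 12.7% of all genes higher, with a member median of 1.20.

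**Figure D2:**
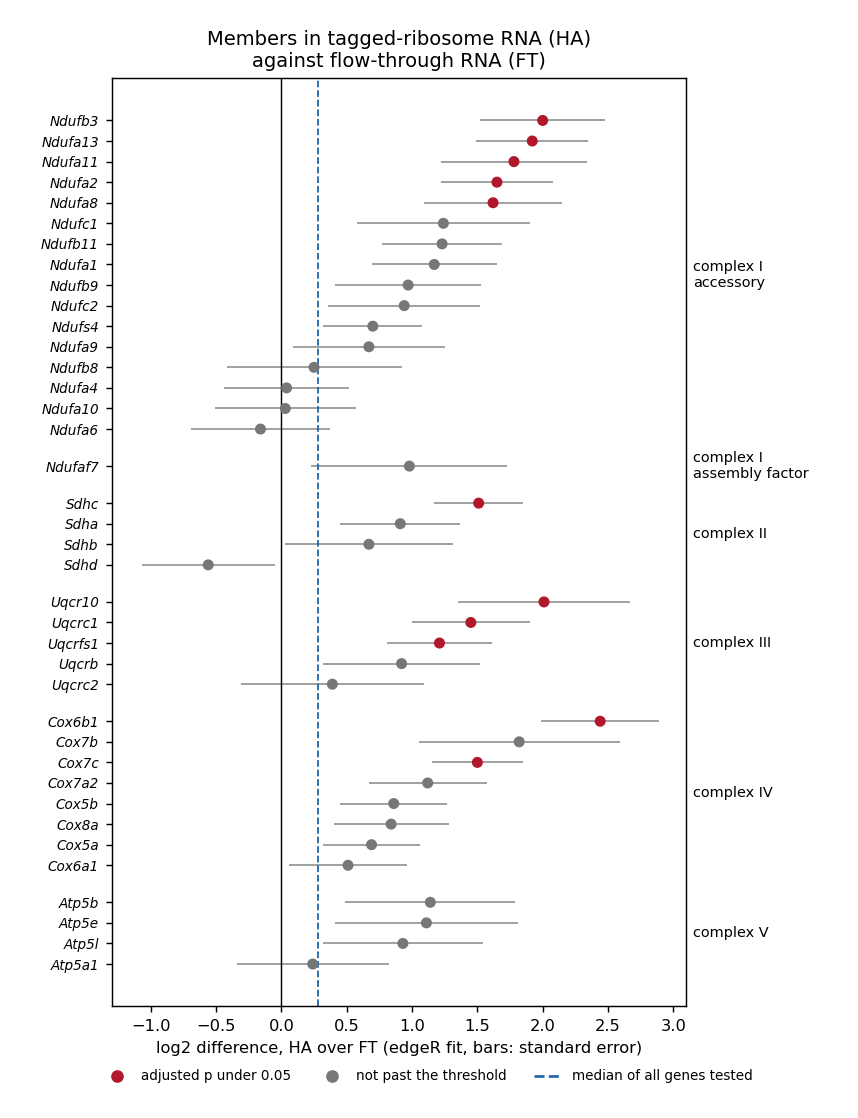
Log2 difference between HA and FT for the 38 members tested, ordered by complex. Points are the edgeR estimates, bars their standard errors, red points the 11 members past an adjusted p of 0.05, and the dashed line the median of all genes tested at 0.28. Every red point lies to the right, and Sdhd lies farthest to the left.

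The summed level of the 48 members showed the same direction in every pair of libraries. It ranged from 944 to 1963 CPM in HA with a median of 1212, and from 429 to 1270 CPM in FT with a median of 557. CPM is here scaled by the trimmed mean of M values (TMM) over both fractions. HA was higher in 10 of 10 title numbers, with ratios from 1.40 to 4.15 and a median of 2.29. The lowest ratio, 1.40, was that of library 1732, whose FT library stood apart in depth and in member counts, and the highest that of 1687, also with growth factors. The SCI only pairs, which had the FT libraries with the highest total counts, gave ratios from 1.48 to 2.64.

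**Figure D3:**
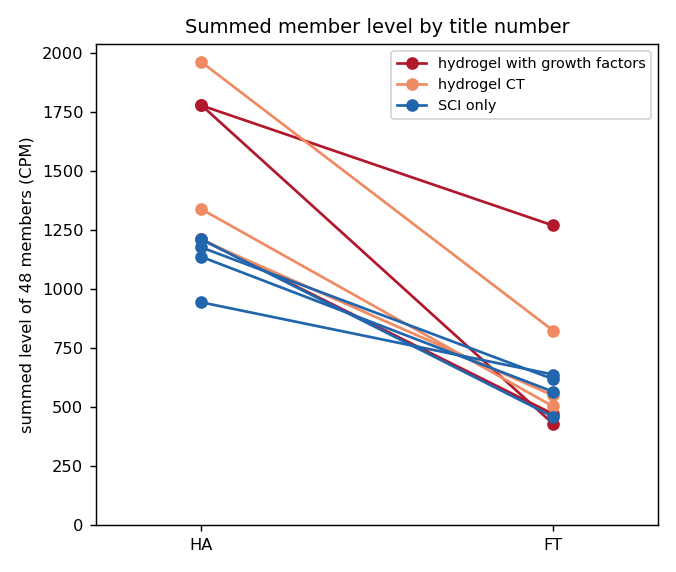
Summed level of the 48 members listed in both fractions, in CPM, for the 10 title numbers. Each line joins the HA library on the left to the FT library of the same number on the right, and colours mark the treatment. All 10 lines fall from left to right, by a ratio between 1.40 and 4.15.

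Among the accessory subunits of complex I, 16 were tested, 15 had a positive difference and 5 were higher in HA. Ndufb3, a small subunit of the membrane arm, had a lowest, median and highest value of 8.21, 33.3 and 97.3 CPM in HA, against 0, 7.09 and 19.9 CPM in FT. This gave a log2 difference of 2.00 with an SE of 0.48 (edgeR adjusted p = 0.00251), and 8 of 10 HA libraries lay above every FT library. Ndufa13, also known as GRIM-19 and placed where the arms of complex I meet, ranged from 23.5 to 104 CPM in HA around a median of 56.8, against 0 to 27.0 CPM in FT around 12.5. The difference was 1.92 on the log2 scale with an SE of 0.43 (edgeR adjusted p = 0.0012).

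The other 3 that were called showed the same direction. For Ndufa11 and Ndufa2, 8 of 10 HA libraries lay above every FT library, and for Ndufa8 6 did. Ndufa11, a membrane subunit, averaged 23.2 ± 9.13 CPM in HA and 6.23 ± 6.29 CPM in FT (SD, n = 10 each), a log2 difference of 1.78. Ndufa2 averaged 78.6 ± 42.4 CPM in HA and 26.3 ± 17.9 CPM in FT (SD, n = 10 each), a log2 difference of 1.65. Ndufa8, which faces the intermembrane space, averaged 40.4 ± 49.9 CPM in HA and 10.2 ± 7.78 CPM in FT (SD, n = 10 each), a log2 difference of 1.62. The HA mean of Ndufa8 was raised by library 1687 with growth factors at 177 CPM, above a median of 28.3 CPM, and it was not called without that title number, without 9596 or in the SCI only libraries alone. Ndufa11 was not called without 9596, and Ndufa2 and Ndufb3 were not called in the SCI only libraries alone. The least different complex I members were Ndufa10 at a log2 difference of 0.03, Ndufa4 at 0.04 and Ndufa6 at -0.16, with SEs between 0.48 and 0.54. Of the assembly factors, Ndufaf7 alone was tested and its difference was 0.98 with an SE of 0.75. The 2 core subunits listed in both fractions, Ndufs8 and Ndufv2, did not pass the filter on low counts, and their FT counts over the 10 libraries came to 40 and 23.

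Of the 4 subunits of complex II, 1 was higher in HA. Sdhc, which with Sdhd forms the membrane anchor that binds ubiquinone, ranged from 57.8 to 218 CPM in HA around a median of 88.7, against 24.4 to 69.2 CPM in FT around 31.7. It was higher in HA by a log2 difference of 1.51 with an SE of 0.34 (edgeR adjusted p = 0.00118), and 9 of 10 HA libraries lay above every FT library. The Sdhc call was lost in the SCI only libraries alone. Sdhd ranged from 4 to 40.4 CPM in HA around 9.33, against 0 to 40.7 CPM in FT around 17.2. Its log2 difference of -0.56 with an SE of 0.51 was the lowest of all members tested and did not pass the test (edgeR adjusted p = 0.489). The catalytic flavoprotein Sdha and the iron-sulfur subunit Sdhb had differences of 0.91 and 0.67 and did not pass either (edgeR adjusted p = 0.171 and 0.51).

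In complex III, all 5 subunits tested had a positive difference and 3 were higher in HA. Uqcrc1, a core protein on the matrix side, averaged 28.8 ± 18.1 CPM in HA and 11.3 ± 7.13 CPM in FT (SD, n = 10 each), a log2 difference of 1.45. Uqcr10, a small structural subunit, was near the limit of detection in FT with a range of 0 to 4.75 CPM, against 1.55 to 32.0 CPM in HA, and its log2 difference was 2.01. Uqcrfs1, the Rieske iron-sulfur protein that hands electrons to cytochrome c1, averaged 68.0 ± 24.0 CPM in HA and 36.0 ± 31.3 CPM in FT (SD, n = 10 each). Its log2 difference was 1.21, and 1 HA library alone lay above every FT library. The FT library 1687 with growth factors reached 115 CPM, on 15 counts. The edgeR adjusted p was 0.0188 for Uqcrc1, 0.0271 for Uqcr10 and 0.028 for Uqcrfs1. The Uqcrfs1 call was lost with DESeq2 size factors, with a filter at 5 CPM and without 1759, 1762, 9596, 9843, 9874 or 9935. Uqcr10 was not called with that filter, in the SCI only libraries alone or without 1687, 1759, 9874 or 9935, and Uqcrc1 was not called in the SCI only libraries alone or without 1759. The second core protein Uqcrc2 and the ubiquinone-binding Uqcrb had differences of 0.39 and 0.92 and were not called.

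In complex IV, 2 of the 8 subunits tested were higher in HA. Cox6b1 had a lowest, median and highest value of 49.6, 112 and 163 CPM in HA, against 0, 17.5 and 46.0 CPM in FT, and the groups did not overlap. Its log2 difference was 2.44 with an SE of 0.45 (edgeR adjusted p = 0.000129), the highest of all members tested. Cox7c, a small structural subunit, had 48.2, 79.4 and 99.1 CPM in HA, against 9.23, 24.2 and 40.5 CPM in FT, again without overlap. The log2 difference was 1.5 with an SE of 0.35 (edgeR adjusted p = 0.00205). In the SCI only libraries alone Cox6b1 was called and Cox7c was not. These were the 2 members whose libraries did not overlap between the fractions, against 1.17% of all genes listed in both tables. The other 6 complex IV subunits tested had positive differences between 0.51 for Cox6a1 and 1.82 for Cox7b and were not called. The 4 members of complex V that were tested, Atp5a1, Atp5b, Atp5e and Atp5l, had positive differences between 0.24 and 1.14, and 0 were called.

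Of the 11 calls, Cox6b1 and Ndufa13 passed in each of the 18 fits tried for this comparison. Without title number 1732, whose FT library held the most member counts, the count was 19, and why it differed was not tested. Within the SCI only libraries, whose title numbers are of 1 series, 5 members of 38 were higher in HA, against 6.02% of all genes in that fit. These were Uqcrfs1, Ndufa13, Ndufa11, Cox6b1 and Ndufb11, an accessory subunit of complex I, and the median over members was 1.06. In that fit the log2 difference of Cox6b1 was 1.49 and that of Uqcrfs1 2.22. The part of the hydrogel libraries' low FT depth in the other calls was not tested.

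The promoters of the members with large differences are shown because many genes of oxidative phosphorylation are known targets of the nuclear respiratory factors NRF1 and GABP, an ETS family protein, and of YY1. RefSeq promoter windows (GRCm38.p6, 250 bases before to 50 after each start) were found for 67 of the 81 members, which gave 71 windows. Each was searched on both strands for GCGCANGCG, the NRF1 core, which occurred in 29.6% of member windows and in 6.25% of all 32851 windows. The ETS core CCGGAAG occurred in 22.5% of member windows and 8.86% of all. The YY1 core ATGGCGGC occurred in 12.7% of member windows and 2.24% of all. None of the 3 patterns contains another, and a match is a description of the letters, not of a binding site. The 130 bases before the start are given for Sdha, the 1 member called between treatments, and for the 4 members with the largest differences between HA and FT, with matches in capitals.
Sdha, chr13:74350241-74350370, minus strand: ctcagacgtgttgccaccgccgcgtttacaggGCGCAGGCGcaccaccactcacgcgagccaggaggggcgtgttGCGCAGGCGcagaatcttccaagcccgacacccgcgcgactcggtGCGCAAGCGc
Cox6b1, chr7:30626115-30626244, minus strand: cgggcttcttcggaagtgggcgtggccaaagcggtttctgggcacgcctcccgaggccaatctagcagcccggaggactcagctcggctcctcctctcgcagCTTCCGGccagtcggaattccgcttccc
Uqcr10, chr11:4704345-4704474, minus strand: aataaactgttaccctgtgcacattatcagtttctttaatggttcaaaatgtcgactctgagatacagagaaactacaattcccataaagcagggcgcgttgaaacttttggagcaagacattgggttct
Ndufb3, chr1:58586267-58586396, plus strand: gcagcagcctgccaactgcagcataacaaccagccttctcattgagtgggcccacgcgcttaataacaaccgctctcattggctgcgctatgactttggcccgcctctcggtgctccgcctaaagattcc
Ndufa13, chr8:69902021-69902150, minus strand: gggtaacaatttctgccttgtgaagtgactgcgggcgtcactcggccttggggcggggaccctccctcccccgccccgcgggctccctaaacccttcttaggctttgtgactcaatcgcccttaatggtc
Sdha held 3 matches to the NRF1 core, whose first bases lie 98, 55 and 10 bases before the start. Cox6b1 held 1 match to the ETS core, on the opposite strand, that begins 28 bases before the start. The stretches of Uqcr10, Ndufb3 and Ndufa13 held no match to the 3 patterns. Of the 9 members called higher in HA that have a window, 3 held the NRF1 core somewhere in it (Ndufa8, Ndufa11 and Uqcrc1), 1 the ETS core and 0 the YY1 core.

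The next comparison asked how the hydrogel with growth factors differed from SCI only in the tagged fraction. Sdha was higher with growth factors, and it was the 1 member of 74 tested that passed the test. Its level was 91.9, 105 and 94.8 CPM with growth factors, 34.3, 44.2 and 101 CPM with hydrogel CT, and 17.1, 23, 11.8 and 13.7 CPM with SCI only. CPM is here scaled by TMM within the HA fraction. All libraries with growth factors lay above all SCI only libraries, and hydrogel CT lay between them, with 1 library, 1762, as high as those with growth factors. The log2 difference between growth factors and SCI only was 2.57 with an SE of 0.54 (edgeR adjusted p = 0.0411). The background in this comparison was 0.331% of 6654 genes higher and 0.105% lower. The call was lost when the fit held only the 2 groups compared (adjusted p = 0.0785) and without 1685, 9596, 9843, 9874 or 9935, where the log2 difference stayed between 2.43 and 2.77. In the authors' deposited table the Sdha transcript has a log2 fold change of 2.62 for growth factors over SCI only, with a false discovery rate of 0.00271.

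An unadjusted p under 0.05 was found for 10 of the 74 members in this comparison, and the median log2 difference was 0.64, against 0.12 over all genes. In 9 of the 81 members all libraries with growth factors lay above all SCI only libraries, against 4.15% of all genes listed in HA, and in 5 members they all lay below, against 7.43%. Uqcrb showed a pattern near that of Sdha. It had 10.9, 7.14 and 15.5 CPM with growth factors, 23.4, 8.98 and 21.5 CPM with hydrogel CT, and 3.14, 0.579, 1.38 and 1.95 CPM with SCI only. Both hydrogel groups lay above SCI only without overlap. Its log2 difference was 2.65 for growth factors over SCI only, with an SE of 0.81 (edgeR adjusted p = 0.111), and the DESeq2 test called it. The authors' deposited table has 4 member transcripts with a false discovery rate under 0.05 for growth factors over SCI only, those of Sdha and Uqcrb (0.0458) higher and those of Uqcr11 and 1 of the transcripts of Ndufa3 (0.0487) lower. DESeq2 called 6 members, of which Sdha, Uqcrb, Cox7b and Ndufb4 were higher with growth factors and Uqcr11 and Atp5g2 lower. Cox7b, a small complex IV subunit, had 15.4, 9.95 and 9.36 CPM with growth factors, 5.5, 5.03 and 12.9 CPM with hydrogel CT, and 0.599, 3.47, 2.41 and 0 CPM with SCI only, and SCI only lay below both hydrogel groups. Ndufb4, an accessory subunit of the membrane arm of complex I, had 10.5, 0 and 8.84 CPM with growth factors, against 0.524, 0.193, 0.115 and 1.12 CPM with SCI only, so its groups overlapped.

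Beside Sdha, the most abundant members did not pass the test. Sdhc had 60.8, 93.9 and 133 CPM with growth factors, against 51.8, 28.7, 42.5 and 37.4 CPM with SCI only, a log2 difference of 1.26 (edgeR adjusted p = 0.171). Sdhb had 7.55, 1.02 and 0.258 CPM with growth factors, against 8.38, 7.91, 12.2 and 6.7 CPM with SCI only, a log2 difference of -1.55 (edgeR adjusted p = 0.396). The subunits of complex II thus had differences of both signs, since Sdhd stood at 0.71. Cox6b1 had 65.3, 74.7 and 99.7 CPM with growth factors, 34.6, 74.3 and 78 CPM with hydrogel CT, and 45.9, 24.7, 56 and 66.7 CPM with SCI only. Its groups overlapped, and its log2 difference between growth factors and SCI only was 0.73 with an SE of 0.52. The corresponding differences were 0.88 for Ndufa2, 0.95 for Ndufs4, 0.9 for Cox5a, -0.37 for Cox8a, 0.06 for Uqcrfs1, 1.13 for Atp5a1, -0.13 for Atp5b and 0.46 for Atp5l, and none of these 8 was called.

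The extremes of this comparison rested on few reads. Atp5j, which encodes coupling factor 6 of the peripheral stalk, had 2.13, 0 and 1.72 CPM with growth factors, against 0, 0.193, 0.115 and 0 CPM with SCI only. Its fitted difference of 4.07 did not pass the test (edgeR adjusted p = 0.196). Uqcr11, a small complex III subunit, had 0 counts in all 3 libraries with growth factors and 1.65, 0.386, 2.52 and 0.837 CPM with SCI only. With a floor of 3 counts over the group it was at least 16.9-fold lower with growth factors than with SCI only, and it did not pass the edgeR test (adjusted p = 0.104). The authors' deposited table gives a false discovery rate of 0.0313 for it.

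**Figure D4:**
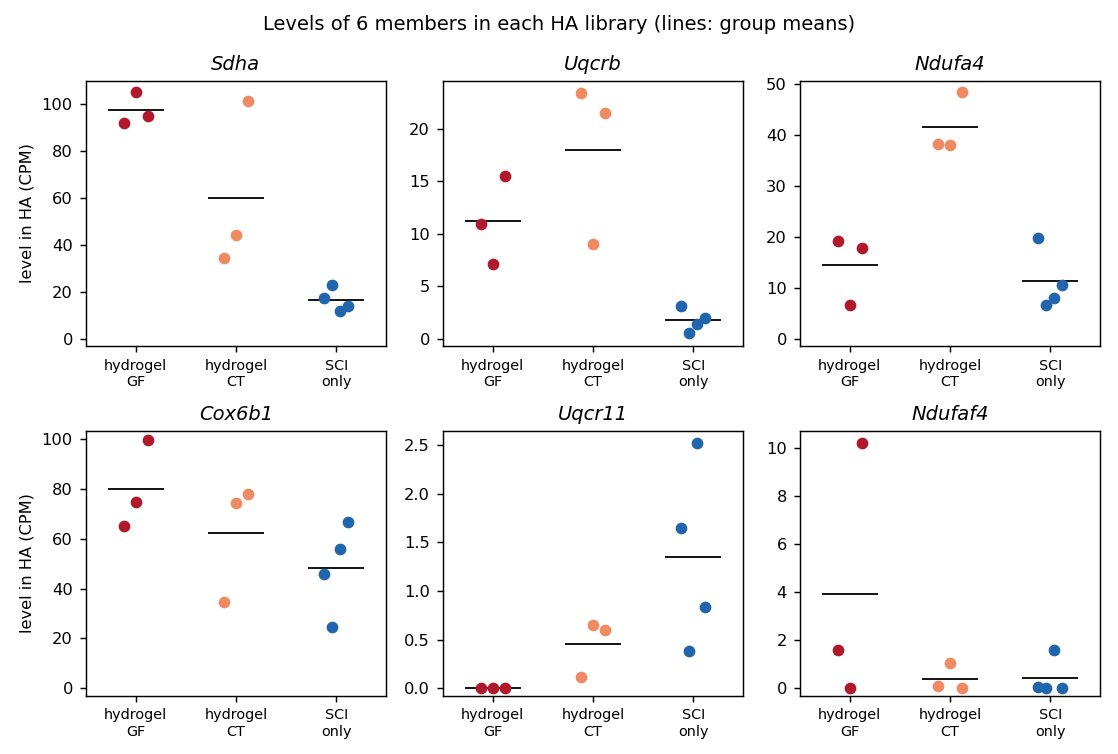
Level of 6 members in each HA library, in CPM, with hydrogel with growth factors (GF), hydrogel CT and SCI only from left to right. Points are libraries and lines group means. Sdha and Uqcrb lie above SCI only in both hydrogel groups, Ndufa4 is highest with hydrogel CT, Cox6b1 overlaps between groups, Uqcr11 is at 0 with growth factors, and Ndufaf4 is set by single libraries.

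Hydrogel CT was then compared with SCI only. Of the 74 members tested, 0 were called by edgeR, against 0.0451% of all genes higher and 0.15% lower, while 9 had an unadjusted p under 0.05. The DESeq2 test called 1 member, Uqcrb, as did edgeR with only the 2 groups compared. The median log2 difference was 0.54 over the members and 0.27 over all genes. Uqcrb had a log2 difference of 3.33 with an SE of 0.82 (edgeR adjusted p = 0.124) on the values given above, and Sdha one of 1.87 with an SE of 0.53 (edgeR adjusted p = 0.175). In the authors' deposited table both transcripts have a false discovery rate under the threshold, 0.0148 for Uqcrb and 0.0394 for Sdha.

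For 16 of the 81 members, all hydrogel CT libraries lay above all SCI only libraries, against 10.9% of all genes listed in HA, and for 2 members, Ndufa11 and Uqcrc1, all lay below, against 5.35%. Ndufa4, whose protein is found in complex IV, had 38.1, 37.9 and 48.4 CPM with hydrogel CT, against 19.8, 6.56, 8.03 and 10.6 CPM with SCI only. Its log2 difference was 1.88 with an SE of 0.63 (edgeR adjusted p = 0.234). Sdhd had 24.3, 9.90 and 18.4 CPM with hydrogel CT, against 4.41, 5.40, 2.18 and 3.07 CPM with SCI only, a log2 difference of 2.22 (edgeR adjusted p = 0.263). Uqcrc1 had 8.57, 8.02 and 6.39 CPM with hydrogel CT, against 16, 19.3, 26.6 and 32.9 CPM with SCI only, a log2 difference of -1.63 (edgeR adjusted p = 0.319). The fitted extremes were Atp5j at 4.76 and Atp5g2 at -1.72, both on few reads and neither called.

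The growth factors were compared with hydrogel CT, whose title numbers are of the same series. Of the 74 members, 0 were called by edgeR and 0 by DESeq2, and 3 had an unadjusted p under 0.05. The background was 0.0902% of all genes higher and 0% lower. The median log2 difference was 0.01 over the members and -0.14 over all genes, with 37 positive and 37 negative. In 2 members, Ndufa9 and Uqcrq, all libraries with growth factors lay above all hydrogel CT libraries, against 2.95% of all genes listed in HA, and in 11 they all lay below, against 14.8%. Ndufa4 had 19.1, 6.63 and 17.8 CPM with growth factors, below all 3 values with hydrogel CT given above, and its log2 difference was -1.51 with an SE of 0.68 (edgeR adjusted p = 0.355). For Ndufaf4, a complex I assembly factor, the fitted difference of 3.35 was the highest and rested on 1 library, 1732, at 10.2 CPM, against 1.58 and 0 CPM in the other libraries with growth factors and 0.113, 1.04 and 0 CPM with hydrogel CT. Uqcr11 at 0 counts with growth factors was at least 5.2-fold lower than with hydrogel CT, where it had 0.113, 0.647 and 0.604 CPM, and it was not called (edgeR adjusted p = 0.269). These 3 comparisons share their groups, so their values for a gene are not independent.

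Summed by complex, complex II showed the widest gap between hydrogel and SCI only in HA. Its 4 subunits added up to 165, 209 and 232 CPM with growth factors, 116, 116 and 229 CPM with hydrogel CT, and 81.7, 65.0, 68.6 and 60.8 CPM with SCI only, so both hydrogel groups lay above SCI only. Sdha and Sdhc made up most of this sum. Over all 81 members the sum was 859, 1016 and 1159 CPM with growth factors, 763, 886 and 1272 CPM with hydrogel CT, and 696, 503, 681 and 648 CPM with SCI only. The log2 ratio of the group means was 0.68 for growth factors over SCI only, 0.62 for hydrogel CT over SCI only and 0.06 for growth factors over hydrogel CT. These ratios depend on the denominator. As a share of counts outside the ribosomal loci, members took 0.666%, 0.621% and 0.75% with growth factors, 0.992%, 1.09% and 1.52% with hydrogel CT, and 0.718%, 0.363%, 0.553% and 0.308% with SCI only. Complex II alone took 0.128%, 0.128% and 0.15% with growth factors and 0.151%, 0.144% and 0.274% with hydrogel CT. With SCI only it took 0.0844%, 0.0469%, 0.0557% and 0.0289%. Every hydrogel library thus lay above every SCI only library on that scale too, while the 2 hydrogel groups overlapped. Over all members the log2 ratio was then 0.48 for growth factors over SCI only, 1.31 for hydrogel CT over SCI only and -0.82 for growth factors over hydrogel CT. No test was run on these sums.

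**Figure D5:**
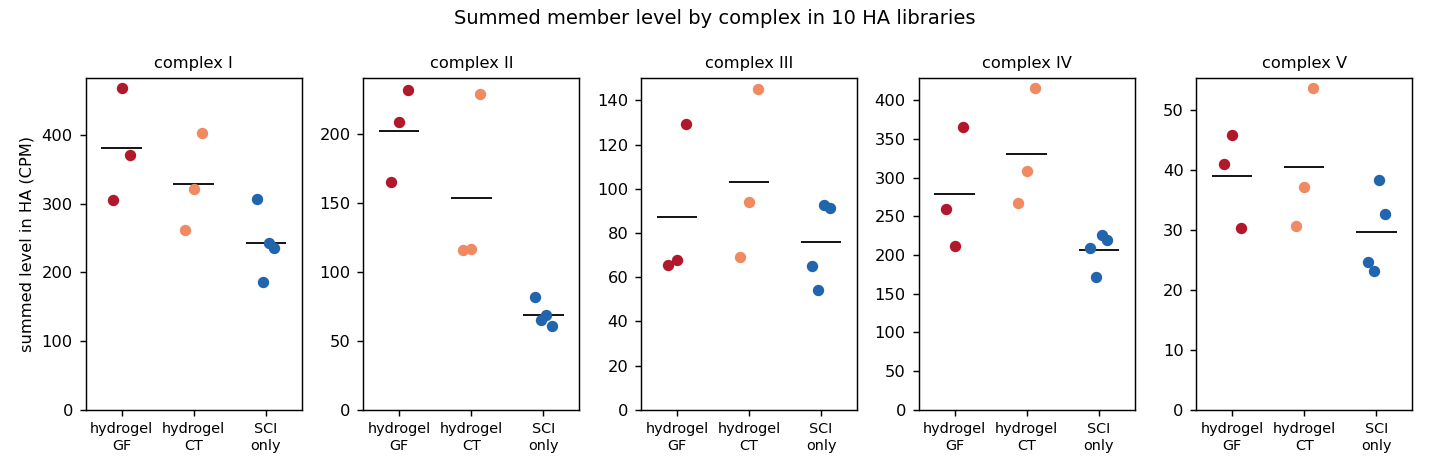
Summed level of the members of each complex in the 10 HA libraries, in CPM, with hydrogel with growth factors (GF), hydrogel CT and SCI only from left to right. Points are libraries and lines group means. For complex II every hydrogel library, from 116 to 232 CPM, lies above every SCI only library, from 60.8 to 81.7 CPM, while in complexes I, III, IV and V at least 1 hydrogel group overlaps with SCI only.

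Marker levels in the same libraries were as follows. The 14 astrocyte markers added up to a range of 9170 to 14700 CPM in HA with growth factors, 5680 to 9100 CPM with hydrogel CT and 6510 to 8620 CPM with SCI only. The 9 listed of 12 microglia and macrophage markers ranged from 50.3 to 76.1 CPM with growth factors, 10.5 to 94.2 CPM with hydrogel CT and 51.1 to 464 CPM with SCI only. The 10 oligodendrocyte markers ranged from 607 to 1350 CPM, 552 to 1190 CPM and 444 to 619 CPM in the same 3 groups. The part of these differences in the member levels was not tested.

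In the flow-through, 9 members passed the filter on low counts and 0 were called in any of the 3 comparisons of treatments by edgeR. For growth factors over SCI only the background was 0.328% of 610 genes higher and 3.44% lower, and 2 members had an unadjusted p under 0.05. For hydrogel CT over SCI only it was 0.328% higher and 2.79% lower, with 1 such member. For growth factors over hydrogel CT it was 0% in both directions, with 0 such members. DESeq2 called 1 member, Uqcrfs1, as higher with growth factors than with SCI only, and 0 in the others. In none of the 48 members did the libraries with growth factors lie apart from those of hydrogel CT, against 0.204% of all genes in FT that lay above and 0.286% that lay below. With SCI only as the other group, 0 members lay apart with growth factors, against 0.0817% of genes above and 10.9% below. With hydrogel CT, 0 lay above SCI only, against 0.817% of genes, and 5 lay below, against 18.6%, namely Cox6b1, Ndufb9, Ndufs8, Sdhb and Uqcrc1.

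The FT counts of the members that were tested were low and uneven. Sdha had 1, 6, 0, 11 and 74 counts with growth factors, 4, 2, 19 and 18 counts with hydrogel CT, and 141, 40, 28 and 18 counts with SCI only. Most of the counts with growth factors came from library 1732. After scaling, its log2 difference between growth factors and SCI only in FT was -0.36 with an SE of 0.68 (edgeR adjusted p = 0.804), against 2.57 in HA, and the difference between the fractions was not tested. Ndufa2 had 2, 1, 2, 1 and 25 counts with growth factors, 3, 7, 2 and 4 counts with hydrogel CT, and 164, 48, 30 and 17 counts with SCI only. Uqcrfs1 had 0, 6, 15, 4 and 82 counts with growth factors, 3, 8, 20 and 7 counts with hydrogel CT, and 27, 16, 21 and 4 counts with SCI only. Although SCI only libraries had the highest total counts, their Uqcrfs1 counts were close to those of hydrogel CT. Uqcrfs1 had the highest difference for growth factors over SCI only, 1.61 with an SE of 0.68 (edgeR adjusted p = 0.202), and Ndufa2 the lowest, -1.84 with an SE of 0.70 (edgeR adjusted p = 0.154). For hydrogel CT over SCI only the extremes were Ndufa4 at 1.56 (edgeR adjusted p = 0.339) and Ndufa2 at -1.68 (edgeR adjusted p = 0.22). For growth factors over hydrogel CT they were Sdhc at 0.81 and Cox6a1 at -0.68 (edgeR adjusted p = 0.956 for both). The authors' deposited table for FT was filtered less strictly and has member transcripts under a false discovery rate of 0.05. They are Uqcrb and Cox7b (higher) and Ndufa2 (lower) for growth factors over SCI only, and Uqcrc1 (lower) for hydrogel CT over SCI only.

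Other genes around oxidative phosphorylation gave a background to the members. Among the carriers, exchange proteins and related genes, 14 were tested in HA. Etfa, which passes electrons from fatty acid oxidation towards ubiquinone, was higher with growth factors than with SCI only. The log2 difference was 4.79 with an SE of 0.85 (edgeR adjusted p = 0.0222). Etfa had 61.9, 11.2 and 37.6 CPM with growth factors and 9.62, 7.69 and 22.1 CPM with hydrogel CT. With SCI only it had 0.748, 2.89, 0.918 and 0.837 CPM. Of 11 glycolytic genes, Pkm, the enzyme of the last step, was lower with growth factors than with SCI only by a fitted log2 difference of -6.66 (edgeR adjusted p = 0.0411). It had 0.0609, 0 and 0.258 CPM with growth factors, 0.766, 6.45 and 2.16 CPM with hydrogel CT, and 17.7, 7.33, 4.82 and 21.8 CPM with SCI only. In the same comparison 0 of 19 genes of the citric acid cycle and linked enzymes and 0 of 28 mitochondrial ribosomal proteins were called. Of 23 assembly factors outside the members and 5 regulators of mitochondrial biogenesis 0 were called as well. The highest regulator was Ppargc1a, the coactivator PGC-1alpha, at 3.46 with an SE of 1.00 (edgeR adjusted p = 0.104). In HA, 0 genes of these 6 lists were called for hydrogel CT over SCI only or for growth factors over hydrogel CT.

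Between HA and FT, each of these lists except the regulators held at least 1 called gene. Of the citric acid cycle and linked enzymes 15 genes were tested, with a median of 0.77 over the list. Suclg2, a subunit of succinate-CoA ligase, was higher in HA by 2.33. Got2, the mitochondrial aspartate aminotransferase, was lower by a log2 difference of -1.52. Of 15 mitochondrial ribosomal proteins 1 was higher, Mrpl28 at 1.92, with a median of 0.94. Of 8 glycolytic genes 3 were higher, Aldoc at 2.09, Ldhb at 1.49 and Pfkl at 1.93, with a median of 0.63, and Aldoc is itself an astrocyte marker. Of 11 assembly factors outside the members 1 was higher, Cox14 at 1.92. Of 11 genes in the list of carriers, exchange proteins and related genes 1 was higher, Coq7 at 1.90. Of 2 regulators tested, Ppargc1a and Tfam, 0 were called. These counts stand beside the 11 of 38 members and the background of 13.2% higher and 7.37% lower, and the lists were not tested against each other.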

How the data were processed

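RNA of 23 libraries from the HA and FT fractions was measured by paired-end sequencing of cDNA amplified from 5 ng of RNA with a NuGEN Ovation kit, per the labels' protocols. The submitters' processing notes name the build mm10 with edgeR and CASAVA 1.8.2. Which aligner, counter, strand setting and annotation were used is not given in the sources used here, so reads of overlapping genes, antisense genes and near-identical copies, such as the Atp5l pseudogenes, cannot be told apart. The authors deposited whole-number counts per transcript, in 10389 rows for HA and 5001 for FT, and, per the file headers, a log2 fold change and p-value with false discovery rate for each 2 treatments. Another 45 per-sample columns were not used. Of the rows, 136 in HA and 35 in FT carry no symbol and did not enter the tests.

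Counts were summed per symbol. All comparisons used the edgeR 4.0.16 quasi-likelihood test in R 4.3.3, with TMM scaling, filterByExpr at a minimum count of 10, Benjamini-Hochberg adjustment over all genes tested, a threshold of 0.05 and two-sided tests. The 3 treatments of a fraction shared a fit. HA was set against FT with terms for treatment and fraction. DESeq2 1.42.0, other scalings and filters, removal of the ribosomal loci, only the groups compared and each library left out were the alternatives. An alternative on the SCI only libraries alone was added after seeing the data. The code was tested on simulated data.

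The members and the gene lists were chosen with earlier results of these data known. Named genes were the 3 members with most counts in complexes I, III, IV and V, all of complex II, every member called, the extremes of each comparison and isoform pairs; other named genes, such as Cox7b, Ndufb11 and Ndufb4, were chosen by the call of an alternative or after their values were seen. By the series text the fractions derive from shared samples of tissue, and a title number found in both was read in that way. The correlation of deviations from group means within the 10 pairs ran from 0.00597 to 0.125, and 1 was above 0.1. The labels do not state that each number is a separate animal, so p-values reflect only how far these libraries spread. Libraries of 1 group differed by a chi-square of 4.61 to 267 per degree of freedom, so none was a copy of another. Reads carry no molecular identifiers, and floors of 3 counts cover counting error only.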

Additional observations from a re-analysis of the deposited data

Results flagged for a closer look

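In groups of 4 to 10 libraries, 41 sets of values were checked for a library far from the others, of which chance marks about 1 in 20 by the criterion used, and 3 were found. All 3 are HA libraries of SCI only. Atp5b, the catalytic beta subunit of ATP synthase, stood at 15.1 CPM in library 9874, against 5.30 to 6.06 CPM in the others. Ndufaf4, a complex I assembly factor, stood at 1.61 CPM in the same library, against 0 to 0.0748 CPM in the others. Ndufa11, a membrane subunit of complex I, stood at 23.3 CPM in library 9596, against 13.7 to 14.9 CPM in the others. None of these genes was called between treatments in HA.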

How the results depend on the processing

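The count of members higher in HA than in FT was 11, from 9 to 16 under the planned settings other than leaving out a library, with 0 lower in each, 8 to 19 when a title number was left out (19 without 1732) and 5 in the SCI only libraries alone, a setting added after seeing the data. With the title number as a replicate block it was 13, since Cox7b and Cox8a were called as well, and it changed no other member's call. Without a block 435 genes were higher and 243 lower, and with it 409 and 264. Genes past the threshold numbered 422 in the SCI only libraries alone and 550 to 713 with a title number left out.

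For growth factors over SCI only in HA, Sdha was the 1 member called; DESeq2 called 6, the fit of only 2 groups 0, and leaving out a library gave 0 to 1. Genes called numbered 29, against 710 with DESeq2, 69 without a filter, 53 at 5 CPM, 66 without ribosomal loci, 5 with only 2 groups and 2 to 127 with a library left out (127 without 1687). For hydrogel CT over SCI only, members called were 0, and 1 with DESeq2 or only 2 groups; genes called were 13, against 232 with DESeq2, 8 without ribosomal loci, 113 with only 2 groups and 3 to 15 with a library left out. For growth factors over hydrogel CT genes called were 6, against 271 with DESeq2, 0 with DESeq2 size factors, at 5 CPM, without ribosomal loci or with only 2 groups, and 0 to 13 with a library left out.

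In FT, hydrogel CT over SCI only gave 0 members, and 1 (Cox6b1, lower) with only 2 groups; genes called were 19, against 6 with DESeq2 size factors, 57 with DESeq2, 149 without a filter, 138 at 5 CPM, 31 without ribosomal loci, 209 with only 2 groups and 4 to 17 with a library left out. Growth factors over SCI only gave 0 members, against 1 with DESeq2 (Uqcrfs1), 1 without a filter (Cox7b) and 2 at 5 CPM (Cox7b and Uqcrb), all higher; genes called were 23, against 6 with DESeq2 size factors, 79 with DESeq2, 174 without a filter, 140 at 5 CPM and 9 to 23 with a library left out.

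With counts outside the ribosomal loci as the denominator, the log2 ratio of summed member level was -0.82 in place of 0.06 for growth factors over hydrogel CT and 1.31 in place of 0.62 for hydrogel CT over SCI only in HA. In FT it was 1.02 in place of -0.39 for hydrogel CT over SCI only and 1.14 in place of -0.12 for growth factors over SCI only. DESeq2 size factors gave a median over all genes of 0.05 in place of 0.27 for hydrogel CT over SCI only and 0.01 in place of -0.14 for growth factors over hydrogel CT in HA, and of 0.45 in place of 0.01 for growth factors over SCI only, 0.28 in place of -0.01 for hydrogel CT over SCI only and 0.14 in place of -0.02 for growth factors over hydrogel CT in FT. The member median moved with it and stood 0.26 above in place of 0.27 in the first of these. The cause was not tested. Depth limits FT most: 9 of its 48 members could be tested between treatments.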
